A study of Mus musculus with 59 samples.

Results

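In fed mouse liver, 682 of 15642 BCL6 peaks (4.36%, 95% Wilson interval 4.05% to 4.69%) had their center at a promoter. A promoter was taken as 1000 bp upstream to 100 bp downstream of any transcription start site (TSS) of 45756 curated RefSeq transcripts on mm10. The other 14960 fed BCL6 peaks served as the comparison. ChIP-seq for BCL6, PPARα and PPARδ was done on livers of male C57BL/6 mice of WT genotype, either fed ad lib or fasted overnight. BCL6 was also mapped in livers of ad lib fed male Bcl6 fl/fl mice, floxed animals on the same strain that serve as controls of the liver knockout and carry no Cre, called floxed livers from here on. Each of the 7 peak lists joins 3 replicate animals, 21 samples in all of 59 in the series, and holds positions only. A peak is therefore called or not called in a list, the spread between replicates cannot be given, and the sequencing depth behind a missing peak is unknown. Confidence intervals are 95% Wilson intervals over peaks and cover counting error only. Fisher's exact tests below are two-sided and take peaks as units, which are not replicates of a condition.

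BCL6 is a zinc finger repressor that recruits the corepressors SMRT, NCoR and BCOR, and is best known from germinal center B cells. Its element resembles the site of STAT factors, which carry growth hormone signals in liver. PPARα is a fatty acid-activated nuclear receptor that turns on fat oxidation and ketone production in fasting, and it binds 2 copies of AGGTCA in the same direction with 1 base between them (DR1). Promoters of widely expressed genes are mostly rich in CpG, whereas those of many liver-specific genes are not. *Alb*, *Ahsg*, *Cp* and *F9*, which encode secreted proteins of the hepatocyte, are among 13 of 27 hepatocyte marker genes with a promoter peak. Of all protein-coding genes, 2.77% had one. None of 32 marker genes of other liver cell types had one (upper Wilson bound 10.7%). The 2.77% lies below this bound, so that count does not set the other cell types apart from all genes.

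The sequences of 10 promoter peaks, chosen because they hold the BCL6 element, are printed with the element in capitals. The element searched was TTCCTAGAA with at most 1 mismatch, on both strands, within 200 bp around the peak center. It was found at 140 of the 682 promoter peaks (20.5%), so the printed peaks do not stand for the rest. A match does not measure binding. Printed are the peaks of the named genes with an exact element, followed by those with 1 mismatch nearest to the peak center. Sequence is that of the GRCm38 assembly of RefSeq (mm10), 5′ to 3′ along the gene, at most 120 bases and stopping at an annotated exon. Where the element itself lies in an exon, 30 bases are given. *Socs2* and *Cebpg* are also given with 30 bases, although their peak centers were placed outside the curated transcripts. An exact element was found at the growth hormone genes *Igfals*, *Prlr* and *Cish* and at the proteasome gene *Psmd3*, where the window holds 2 copies.
Igfals (chr17:24878117-24878230, plus strand): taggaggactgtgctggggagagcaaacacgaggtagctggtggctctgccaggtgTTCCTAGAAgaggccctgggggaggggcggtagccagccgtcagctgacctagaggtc
Psmd3 (chr11:98682371-98682490, plus strand): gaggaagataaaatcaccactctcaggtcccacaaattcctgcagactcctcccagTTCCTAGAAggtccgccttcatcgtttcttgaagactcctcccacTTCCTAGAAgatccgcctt
Prlr (chr15:10223740-10223818, plus strand): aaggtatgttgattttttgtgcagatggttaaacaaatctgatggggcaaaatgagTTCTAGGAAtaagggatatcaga
Cish (chr9:107296753-107296782, plus strand): aaagcccgcggTTCTAGGAAgatgaggctt
The other 6 peaks hold the element with 1 mismatch, and the capitals at *Cyp2j5* mark 2 overlapping matches.
Socs2 (chr10:95416893-95416922, minus strand): tcctggaaagTTCCTGGAAagcggcctccg
Cyp2j5 (chr4:96664172-96664248, minus strand): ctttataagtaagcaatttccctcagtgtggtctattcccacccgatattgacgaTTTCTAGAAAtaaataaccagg
Cebpg (chr7:35057356-35057385, minus strand): ctctcagggaTTCCTCGAAgtcttatgtgg
Olfr1357 (chr10:78618382-78618501, minus strand): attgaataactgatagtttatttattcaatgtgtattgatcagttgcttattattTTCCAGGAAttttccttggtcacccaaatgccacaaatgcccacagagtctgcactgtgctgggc
Fgd4 (chr16:16600644-16600763, minus strand): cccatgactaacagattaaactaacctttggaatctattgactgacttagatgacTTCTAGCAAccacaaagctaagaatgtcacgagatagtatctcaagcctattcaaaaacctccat
Nr1i3 (chr1:171213021-171213140, plus strand): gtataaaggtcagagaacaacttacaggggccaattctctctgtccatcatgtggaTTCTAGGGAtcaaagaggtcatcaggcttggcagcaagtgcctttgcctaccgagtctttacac
One sequence without the BCL6 element was added after its values were seen, because the peak was called in all 7 lists. It is that of *Fabp1*, the fatty acid binding protein of liver, where the capitals mark a DR1 with 1 mismatch whose middle lies 61 bp upstream of the TSS. Of the 28 promoter peaks called in all 7 lists, only 3 held a DR1 (10.7%), so *Fabp1* does not stand for the others.
Fabp1 (chr6:71199758-71199877, plus strand): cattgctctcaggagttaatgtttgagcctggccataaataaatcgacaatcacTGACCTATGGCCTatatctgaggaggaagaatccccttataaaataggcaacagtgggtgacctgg

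Promoter peaks gathered just upstream of the TSS. Their median center lay 178 bp upstream, with quartiles at 83 and 565 bp. Per 100 bp of promoter there were 164.0 peaks in the last 100 bp before the TSS and 124.7 from 250 to 100 bp upstream, but 44.0 from 500 to 250 bp, 36.6 farther upstream and 38.0 in the 100 bp downstream. The position of the nearest TSS was the outermost annotated start of its gene at 582 peaks (85.3%). The nearest TSS belonged to a protein-coding gene at 587 peaks, to a lncRNA at 72 and to a miRNA at 17. Centers lay outside annotated transcripts at 467 peaks, in an intron at 156 and in an exon at 59. Only 19 peaks (2.79%) lay in promoters of both strands, and 22 lay in promoters of 2 or more genes. In all, 684 genes had a promoter peak, of which 581 were protein-coding, which is 2.77% of 21000 protein-coding genes. Peaks just inside the upstream limit were those of *Fgb* and 1110002J07Rik, both at 991 bp, and the nearest outside were those of *Gm2061* at 1003 bp and *Olfr1160* at 1004 bp.

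**Figure D1:**
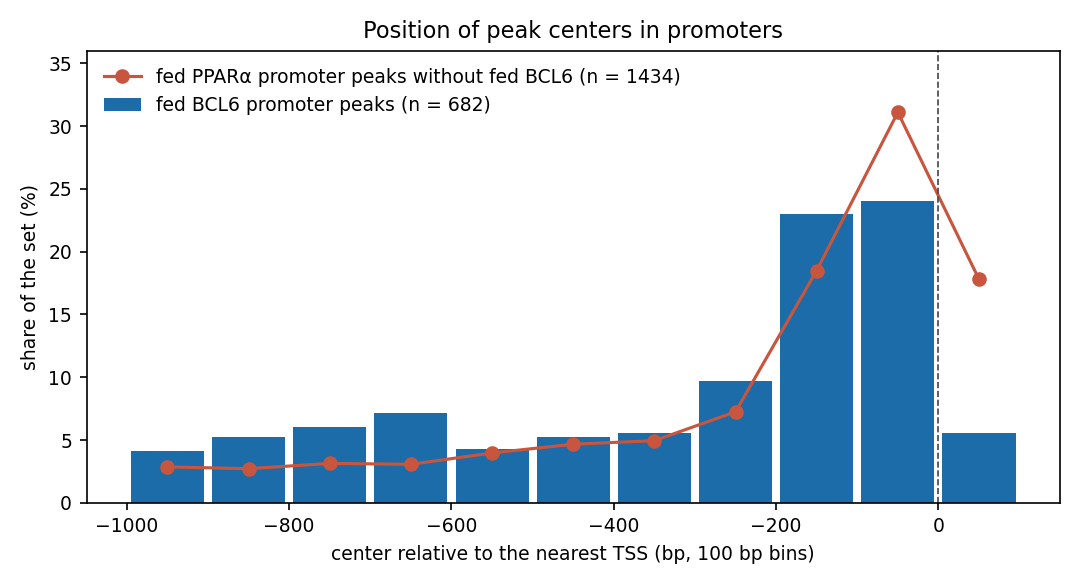
Share of peak centers (%) in 100 bp bins relative to the nearest TSS (bp, negative is upstream), for the 682 fed BCL6 promoter peaks (bars) and for 1434 fed PPARα promoter peaks with no fed BCL6 center within 200 bp (line). BCL6 has 24.0% of its peaks in the last 100 bp before the TSS and 5.57% in the 100 bp after it, where PPARα without BCL6 has 31.1% and 17.8%.

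BCL6 sat in CpG-poor promoter DNA. A 200 bp window was called CpG-rich if its GC content was at least 50% and its observed over expected CpG ratio at least 0.6. Of the promoter peaks, 67 of 682 (9.82%, interval 7.81% to 12.3%) were CpG-rich, against 775 of 1434 (54.0%, 51.5% to 56.6%) fed PPARα promoter peaks without BCL6 (odds ratio 0.0926, p = 9.24e-95, Fisher's exact test). Median GC content was 46.5% at BCL6 promoter peaks and 59.5% at the PPARα peaks without BCL6, and the median CpG ratios were 0.275 and 0.679. PPARα promoter peaks that did have a BCL6 center within 200 bp were CpG-rich in 36 of 487 cases (7.39%), close to the BCL6 peaks with which they overlap. Leaving them out of the PPARα side made the gap above wider than it would be against all PPARα promoter peaks. Among 31603 windows ending at a distinct RefSeq TSS, 40.1% were CpG-rich, and among the other fed BCL6 peaks 0.448%.

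The gap was present along the promoter. From 200 bp upstream to the TSS, 34 of 321 BCL6 peaks (10.6%) and 436 of 711 PPARα peaks without BCL6 (61.3%) were CpG-rich, and farther than 500 bp upstream the shares were 4.92% of 183 and 21.7% of 226. Measured in the 200 bp that end at the nearest TSS rather than at the peak, an alternative added once the data had been seen, the shares were 27.4% and 59.4% (odds ratio 0.258, p = 3.97e-44, Fisher's exact test). The floxed livers gave a list with more promoter peaks, 1273 of 17454 (7.29%), and 400 of these (31.4%) were CpG-rich. Against PPARα promoter peaks without floxed BCL6, of which 55.2% were CpG-rich, the odds ratio was 0.373 (p = 2.35e-32, Fisher's exact test). Of the 748 floxed promoter peaks with no C57BL/6 BCL6 center within 200 bp, 45.2% were CpG-rich.

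The BCL6 element and 3 elements of general promoters were more frequent at promoter peaks than at other fed BCL6 peaks, and 1 element of a liver factor was less frequent. These were 5 of 15 elements searched (Fisher's exact tests with adjustment over the 15 by Benjamini-Hochberg). The BCL6 element stood in 140 of 682 promoter windows (20.5%, 17.7% to 23.7%) and in 15.8% of the others (adjusted p = 0.00499), with 5.41% of all TSS windows as background. This call was lost with the exact element (3.23% against 1.99%, adjusted p = 0.109), in windows of 50 bp (adjusted p = 0.375), with the floxed list as source (18.4% against 16.2%, adjusted p = 0.0557) and with predicted transcripts added (adjusted p = 0.287, added after seeing the data). An exact copy was present in 22 promoter peaks. The nearest copy lay a median of 35.5 bp from the peak center, and in 50 of the 140 peaks within 25 bp. Of these 140 peaks, 89 (63.6%) also held TTCNNNGAA, the STAT pattern that overlaps the BCL6 element, whereas 22 promoter peaks had the STAT pattern alone. The STAT pattern was found at 16.3% of promoter and 14.7% of other peaks (adjusted p = 0.370).

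The GC box GGGCGGG, the site of Sp factors, was found at 5.57% of promoter peaks and 0.862% of other peaks (odds ratio 6.78, adjusted p = 3.15e-16). The ETS site CCGGAAGT was found at 1.32% against 0.114% (9 and 17 peaks, adjusted p = 6.49e-06). The site of NRF1, a regulator of genes for mitochondrial respiration, was searched as GCGCA joined to TGCGC with at most 1 mismatch and was found at 5 promoter peaks (0.733%) and 19 others (adjusted p = 0.00992), a call lost in windows of 50 bp (adjusted p = 0.375) and with predicted transcripts (adjusted p = 0.0891). Each of these was still rarer at BCL6 promoter peaks than in TSS windows at large, where their shares were 27.7%, 3.14% and 5.78%. The TSS windows are not matched to the peaks, here or for the other elements. They end at the TSS, whereas peak centers lay up to 1000 bp upstream, and their median GC content was 55.5% against 46.5%. The HNF6 site ATTGATTT went the other way, with 4.25% of promoter peaks against 7.66% of other peaks (adjusted p = 0.00297), a call lost in windows of 50 bp (adjusted p = 0.123) and when the other peaks were limited to those with a TSS within 10 kb (adjusted p = 0.161).

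The remaining elements besides STAT did not pass the test, and the shares below are of promoter and then of other peaks. C/EBP sites TTGCNNAA stood at 25.5% and 25.5%, HNF4 sites CAAAGTCCA with at most 1 mismatch at 18.3% and 20.2%, and FOXA sites TGTTTAC at 9.82% and 9.75%. DR1, with at most 2 mismatches, stood at 9.97% and 11%. In TSS windows at large these 4 shares were 6.97%, 5.17%, 2.08% and 2.28%. The CCAAT box (CCAAT) was found at 33.0% and 32.1%, the TATA box TATAAA at 9.24% and 10.0%, and the E box CACGTG at 4.69% and 3.34%. The CRE TGACGTCA had 0.587% and 0.254%, and the YY1 site AAGATGGC 1.17% and 0.682%. A match describes the letters of the window and is not a measurement of binding.

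**Figure D2:**
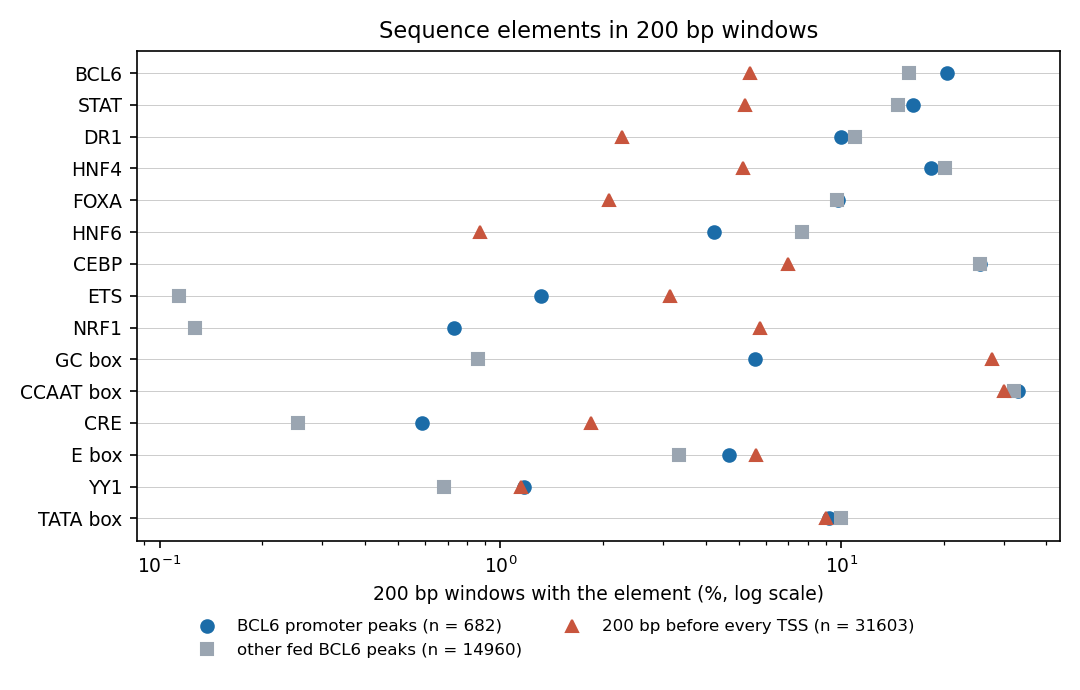
Share of 200 bp windows (%, log scale) holding each of 15 elements at the 682 BCL6 promoter peaks (circles), the 14960 other fed BCL6 peaks (squares) and in 31603 windows ending at a RefSeq TSS (triangles). The C/EBP circle and square both lie at 25.5%, and the GC box circle (5.57%) lies between 0.862% and 27.7%.

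In fasted livers promoter peaks had PPARα more often than the other BCL6 peaks did. That call was lost against other peaks with a TSS within 10 kb (adjusted p = 0.0560, Fisher's exact test). In fed livers no difference passed the test. The share with PPARα in fasted livers alone, given below, did not differ detectably between promoter and other peaks (p = 0.278, Fisher's exact test). Of all PPARα peaks, 15.2% lay at promoters in fasted and 8.97% in fed livers. A fed PPARα center lay within 200 bp of 476 promoter peaks (69.8%, 66.2% to 73.1%) and of 70.1% of the others (odds ratio 0.988, adjusted p = 0.898), beside 70.0% of all fed BCL6 peaks. A fasted PPARα center lay within 200 bp of 507 (74.3%, 70.9% to 77.5%) against 67.7% (odds ratio 1.38, adjusted p = 6.57e-04), with 68.0% over all fed BCL6 peaks. The 2 centers lay close together, a median of 25.5 bp apart at promoters and 27 bp elsewhere, and within 50 bp at 364 of the 476 promoter peaks.

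By state, 444 promoter peaks (65.1%) had PPARα in both fed and fasted livers, 63 (9.24%) in fasted livers alone, 32 (4.69%) in fed livers alone and 143 (21.0%) in neither. Among the 539 with PPARα in at least 1 state, 63 (11.7%) had it in fasted livers alone, against 10.3% of the other peaks (p = 0.278, Fisher's exact test). PPARδ, a receptor that binds the same element, was called in fed livers at 192 promoter peaks (28.2%) against 26.9% of the others (adjusted p = 0.566, 26.9% of all). In fasted livers it was called at 48 (7.04%) against 6.37% (adjusted p = 0.566, 6.40% of all).

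BCL6 itself was called again within 200 bp in fasted livers at 354 of the 682 promoter peaks (51.9%, 48.2% to 55.6%), against 48.8% of the others (adjusted p = 0.235) and 48.9% of all. In floxed livers it was called at 518 (76.0%, 72.6% to 79.0%) against 69.1% (odds ratio 1.41, adjusted p = 6.57e-04), with 69.4% of all. Both other BCL6 lists held 309 of the promoter peaks (45.3%), and at least 1 of them held 563 (82.6%). Where BCL6 was still called in fasted livers, 269 of 354 peaks (76.0%) had PPARα in both states and 43 (12.1%) in neither. Where it was not, 175 of 328 (53.4%) had PPARα in both states and 100 (30.5%) in neither.

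These differences were small and depended on what was compared. Against only those other peaks with a TSS within 10 kb, the adjusted p was 0.0560 for both the floxed BCL6 and the fasted PPARα comparison. With the 1273 promoter peaks of the floxed list in place of the 682, fasted BCL6 was found at 29.3% of promoter and 45.5% of other peaks (odds ratio 0.497, adjusted p = 3.17e-29), fed PPARα at 59.6% and 68.6% (adjusted p = 2.43e-10), and fasted PPARα at 69.8% and 69.2% (adjusted p = 0.682). Fasted PPARα alone then made up 20.1% of the promoter peaks with PPARα against 11.7% (p = 1.41e-12, Fisher's exact test).

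**Figure D3:**
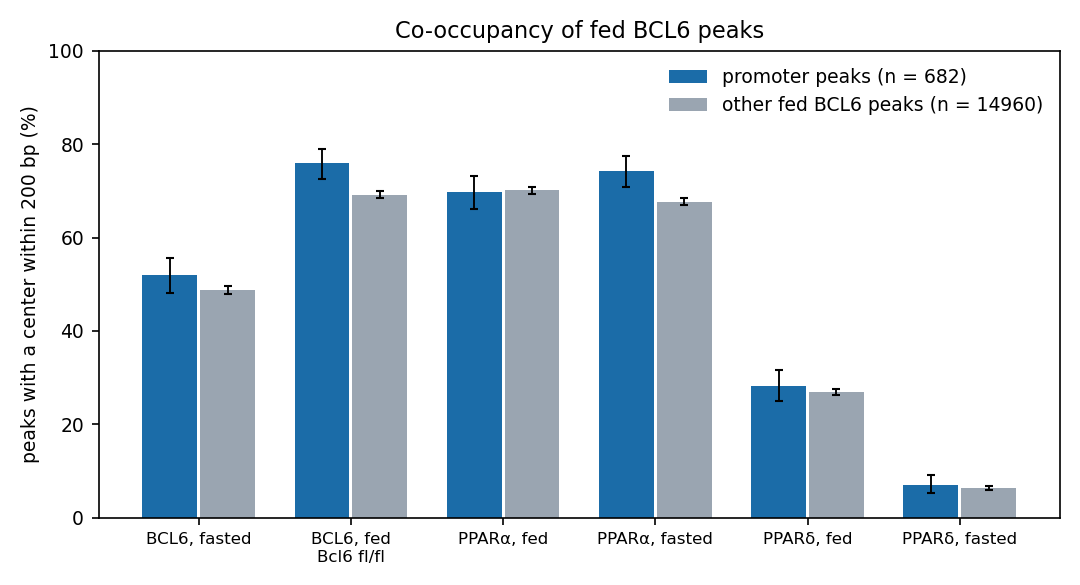
Share of fed BCL6 peaks (%) with a center of each other list within 200 bp, for the 682 promoter peaks and the 14960 other peaks, with 95% Wilson intervals. The intervals of the pairs for floxed BCL6 (76.0% and 69.1%) and fasted PPARα (74.3% and 67.7%) do not overlap.

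The promoter peaks were not alike among themselves. Within them, 11 of 15 comparisons passed an adjusted p of 0.05 (Fisher's exact tests, Benjamini-Hochberg over the 15). Peaks near the TSS, from 250 bp upstream to 100 bp downstream (389 peaks), kept BCL6 in fasted livers in 56.3% of cases against 46.1% of the 293 farther upstream (adjusted p = 0.0117). This call was lost with promoters of 500 bp upstream (56.3% against 47.3%, adjusted p = 0.142), and with the floxed list as source the direction turned (28.0% against 31.3%, adjusted p = 0.220). Peaks near the TSS had PPARα in fasted livers at 81.2% against 65.2% (adjusted p = 1.24e-05) and in fed livers at 75.3% against 62.5% (adjusted p = 0.00129). The fed call was lost with the floxed list (61.0% against 57.5%, adjusted p = 0.220) and where near meant within 100 bp upstream (74.8% against 67.7%, adjusted p = 0.0935). Floxed BCL6 (78.4% and 72.7%, adjusted p = 0.108) and fed PPARδ (27.5% and 29.0%, adjusted p = 0.716) did not pass.

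Peaks with a BCL6 element had PPARα less often. A fed PPARα center was present at 62 of 140 peaks with the element (44.3%, 36.3% to 52.6%) and at 414 of 542 without it (76.4%, 72.6% to 79.8%, odds ratio 0.246, adjusted p = 1.46e-11). In fasted livers the shares were 50.0% and 80.6% (odds ratio 0.240, adjusted p = 1.46e-11), and for fed PPARδ 19.3% and 30.4% (adjusted p = 0.0117). The PPARδ call was lost with promoters of 500 bp upstream (20.6% against 30.7%, adjusted p = 0.0740) and with the exact element, an alternative added after seeing the data (9.09% against 28.8%, adjusted p = 0.0709). With an exact element, fed PPARα was present at 6 of 22 peaks (27.3%, 13.2% to 48.2%), with 1 mismatch at 56 of 118 (47.5%, 38.7% to 56.4%). Recurrence of BCL6 did not differ detectably by the element: 55% against 51.1% in fasted livers (adjusted p = 0.517) and 76.4% against 75.8% in floxed livers (adjusted p = 0.912). The gap in fed PPARα was present near the TSS (50.0% of 78 against 81.7% of 311) and farther upstream (37.1% of 62 against 69.3% of 231). It was also present in CpG-poor windows (47.5% of 118 against 77.5% of 497). Away from promoters the shares were 51.6% of 2362 and 73.5% of 12598, an odds ratio of 0.384 beside 0.246, and the difference between the 2 ratios was not tested. In the floxed list the gap at promoters was 38.0% against 64.5% (adjusted p = 5.60e-13).

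DR1 gave a different picture, here as a description with no test. Of the 68 promoter peaks with a DR1, 54 (79.4%) had fed PPARα and 38 (55.9%) fed PPARδ, against 68.7% and 25.1% of the 614 without one. Of the 131 peaks with a BCL6 element and no DR1, 57 (43.5%) had fed PPARα and 22 (16.8%) fed PPARδ. Both elements stood together at only 9 peaks, 5 of which had fed PPARα. Neither element was found at 483 peaks, and 365 of these (75.6%) had fed PPARα.

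CpG-rich promoter peaks, 67 in number, differed in all 5 comparisons. BCL6 was still called in fasted livers at 22 (32.8%, 22.8% to 44.7%) against 54.0% of the 615 CpG-poor peaks (adjusted p = 0.00296), but in floxed fed livers at 62 (92.5%, 83.7% to 96.8%) against 74.1% (adjusted p = 0.00129). PPARα was present at 52.2% against 71.7% in fed livers (adjusted p = 0.00391) and at 59.7% against 75.9% in fasted livers (adjusted p = 0.0117), and fed PPARδ at 13.4% against 29.8% (adjusted p = 0.00749). Away from promoters, the 67 CpG-rich fed BCL6 peaks also had floxed BCL6 more often by share (91.0% against 69.0%), but PPARα shares went the other way, at 76.1% against 70.0% in fed and 79.1% against 67.6% in fasted livers, with no test. The BCL6 element stood at 22 of the 67 promoter peaks (32.8%) and at 118 of the 615 (19.2%). All 22 CpG-rich peaks with the element were called in floxed livers. With the floxed list as source, fasted BCL6 was found at 8.00% of 400 CpG-rich and 39.1% of the other promoter peaks (adjusted p = 9.52e-33).

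**Figure D4:**
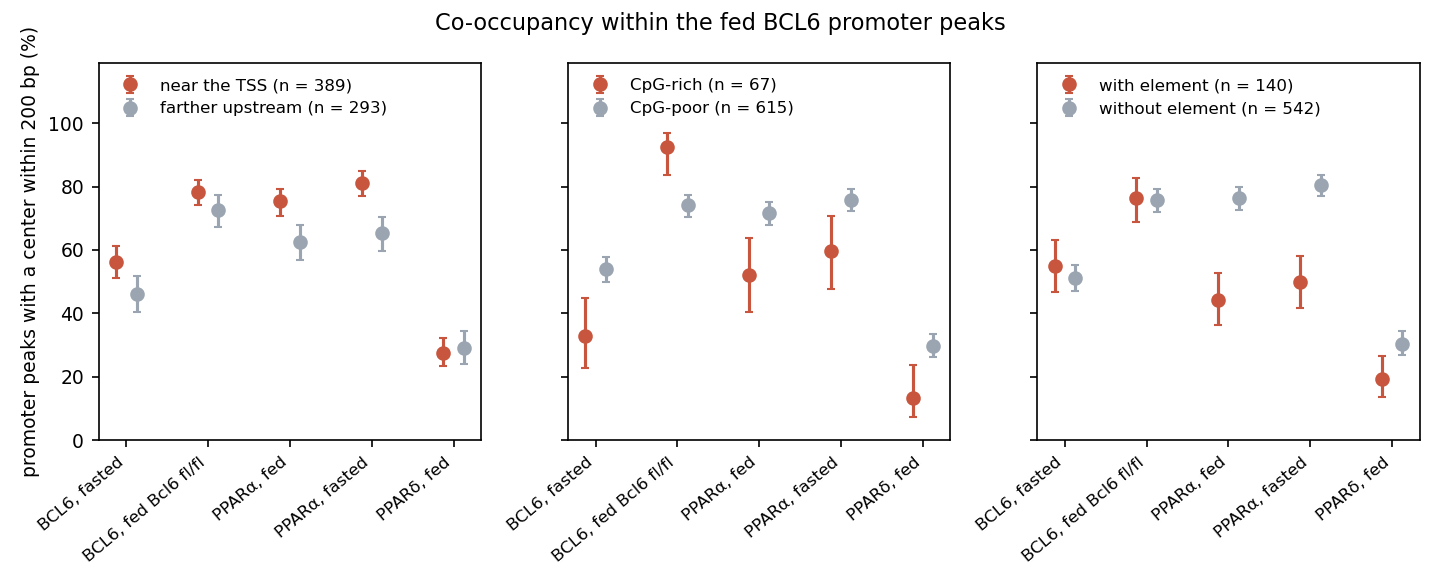
Share of the 682 fed BCL6 promoter peaks (%) with a center of each list within 200 bp, split by position, CpG class and BCL6 element, with 95% Wilson intervals. The widest gap is that of PPARα between peaks with (44.3% fed, 50.0% fasted) and without (76.4%, 80.6%) the BCL6 element.

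Among gene lists, those of hepatocyte functions had the highest shares of genes with a promoter peak, described here by counts with no test, beside the 2.77% of all protein-coding genes that had one. The 30 lists hold 2142 genes, all matched by symbol, and 131 of them had a promoter peak. Highest was the list of hepatocyte markers with 13 of 27 genes (48.1%), followed by the drug- and steroid-metabolizing *Cyp2* and *Cyp3* genes with 20 of 54 (37.0%), growth hormone and STAT genes with 8 of 22 (36.4%) and genes of gluconeogenesis and glucose use with 10 of 28 (35.7%). Cholesterol and bile acid genes had 8 of 26 (30.8%) and conjugation enzymes 16 of 63 (25.4%). Fed PPARα promoter peaks were found at 8.30% of all protein-coding genes and at 63.0%, 35.2%, 45.5%, 53.6%, 38.5% and 31.7% of these 6 lists.

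None of the 96 genes of the respiratory chain and ATP synthase had a promoter peak (upper Wilson bound 3.85%), and the same was true of 34 autophagy genes (10.2%), 24 genes of BCL6 and its corepressors (13.8%) and 20 circadian clock genes (16.1%). The share of all protein-coding genes, 2.77%, lay below each of these upper bounds, so the counts do not set these lists apart from it. Cytosolic ribosomal proteins had 2 of 81 (2.47%), mitochondrial ribosomal proteins 1 of 78 (1.28%) and olfactory receptors 1 of 1103 (0.0907%). Of 28 genes known as BCL6 targets in lymphocytes, *Socs2* alone had one, and it is also in the growth hormone list. In the floxed list, 5 clock genes, 3 respiratory chain genes, 3 autophagy genes, 1 gene of the corepressor list and 3 lymphocyte targets had a promoter peak, with 5.38% of all protein-coding genes.

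**Figure D5:**
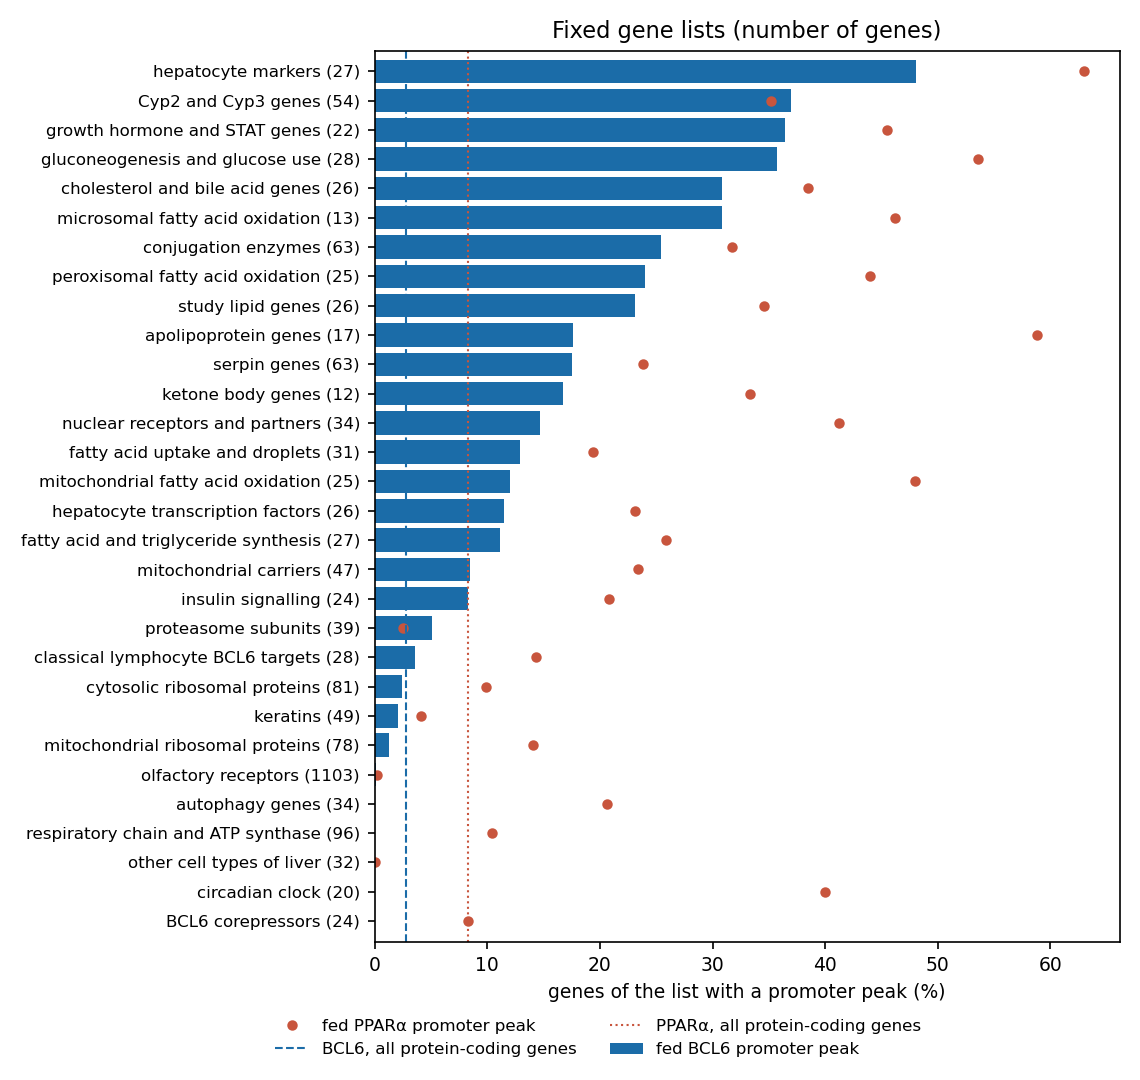
Genes of each fixed list (%) with a fed BCL6 promoter peak (bars) or a fed PPARα promoter peak (dots), with the number of genes in brackets. The dashed and dotted lines mark 2.77% and 8.30% of all protein-coding genes, and the BCL6 bars run from 0 to 48.1%.

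In the fixed lists for fat oxidation, fasted PPARα was called at 5 of 6 peroxisomal, 2 of 3 mitochondrial and 2 of 4 microsomal peaks, beside 74.3% of all promoter peaks. Of 26 lipid genes shown in the study, a list chosen there with these data in view, 6 had a peak (23.1%), and all 6 had PPARα in fasted livers. *Bdh1*, which makes the ketone body 3-hydroxybutyrate, had its peak 58 bp upstream of the TSS (chr16:31422131-31422347), and it was called in all 7 lists. *Acot4*, a peroxisomal thioesterase, had a peak at 72 bp (chr12:84038199-84038415) called with BCL6 in all 3 BCL6 lists and with PPARα in both states. At *Acnat2*, an acyltransferase gene (59 bp, chr4:49408102-49408318), BCL6 was called in fed C57BL/6 and floxed livers but not in fasted livers. *Por*, the electron donor of cytochromes P450, had a CpG-rich peak at 412 bp (chr5:135688625-135688841), also without fasted BCL6. *Acot1*, a cytosolic thioesterase, had one at 298 bp (chr12:84009096-84009312) where PPARα and PPARδ were called in fasted livers alone.

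Over all promoter peaks, 51.9% had fasted BCL6, 69.8% fed PPARα and 28.2% fed PPARδ, and the small counts below were not tested against these shares. The fixed list for peroxisomal fatty acid oxidation had 6 of 25 genes (24.0%), with *Acot4*, *Acaa1b*, *Ech1*, *Acox2* and *Acot12* nearest to the TSS. Where in the cell each listed protein acts was not examined. BCL6 was called again in fasted livers at 5 of the 6 peaks, and *Ech1*, a peroxisomal isomerase, was the exception (225 bp, chr7:28825005-28825221). Fed PPARα was present at 5, all but *Acot12* (411 bp, chr13:91741002-91741218). The fixed list for mitochondrial fatty acid oxidation had 3 of 25 genes (12.0%): *Eci2*, *Acadm*, the medium-chain acyl-CoA dehydrogenase, and *Acsl1*, which activates long-chain fatty acids. All 3 had fed PPARα and fed PPARδ, and BCL6 remained in fasted livers at *Acsl1* alone (492 bp, chr8:46490366-46490582). Microsomal oxidation had 4 of 13 (30.8%), at *Cyp4f14*, *Cyp4a32*, *Cyp4f15* and *Por*. Only *Cyp4a32* kept BCL6 when fasted (179 bp, chr4:115600651-115600867), and near-identical *Cyp4a* copies limit how reads can be placed there. None of the 4 had fed PPARδ.

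Genes of fat uptake and transport had 4 of 31 (12.9%). At *Lipc*, the hepatic lipase (83 bp downstream, chr9:70934617-70934833, in an exon), and at *Fabp1* (89 bp upstream, chr6:71199682-71199898) BCL6, PPARα and PPARδ were called in every list. *Angptl8*, a secreted regulator of lipoprotein lipase, had a peak at 102 bp without fasted BCL6. Fat synthesis had 3 of 27 (11.1%), at *Lpin2*, *Thrsp* and *Elovl6*. None of the 3 kept BCL6 in fasted livers, beside 51.9% of all promoter peaks that did, with no test. At *Thrsp*, a lipogenic gene (178 bp, chr7:97417620-97417836), and *Lpin2*, a phosphatidate phosphatase gene (106 bp, chr17:71204440-71204656), PPARα was called in neither state and BCL6 was also absent from the floxed list. Apolipoprotein genes had 3 of 17 (17.6%), at *Apoc3*, *Apoh* and the mRNA editor gene *Apobec1*. All had PPARα in both states, beside 65.1% of all promoter peaks.

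Bile acid and cholesterol genes had 8 of 26, of which 5 had the peak within 161 bp of the TSS. *Cyp7a1*, the rate-limiting enzyme of bile acid synthesis, had its peak at 161 bp (chr4:6275685-6275901), *Cyp8b1*, which makes cholic acid, at 107 bp (chr9:121916304-121916520), and *Slc10a1*, the bile acid importer, at 6 bp (chr12:80967977-80968193). All 3 were called in all BCL6 lists (45.3% of all promoter peaks), with PPARα in both states (65.1%) and without PPARδ (71.6%). *Abcg5* and *Abcg8*, divergent genes of the sterol exporter, shared 1 peak (chr17:84682901-84683117), 2 bp downstream of the first and 112 bp upstream of the second. In glucose metabolism, peaks near a TSS included those of *Slc2a2*, the glucose transporter of hepatocytes (12 bp), *Pdp2* (87 bp), *G6pc*, the last enzyme of glucose release (153 bp, chr11:101367455-101367671), and *Pck1*, the gluconeogenic carboxykinase (283 bp, chr2:173152682-173152898). BCL6 was called in fasted livers at *G6pc* and *Pck1* and at 5 of the 10 peaks of the list, beside 51.9% of all promoter peaks. Fed PPARα was called at 9 of 10, beside 69.8%.

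Growth hormone genes held the BCL6 element at 4 of their 8 peaks, beside 20.5% of all promoter peaks, with no test. *Cish*, a cytokine-inducible inhibitor of STAT signaling (36 bp downstream, chr9:107296587-107296803, in an exon), *Igfals*, which stabilizes circulating IGF1 (47 bp upstream, chr17:24878076-24878292), and *Prlr*, the prolactin receptor (117 bp, chr15:10223681-10223897), have the exact elements printed above. *Socs2*, a feedback inhibitor of growth hormone signaling (54 bp, chr10:95416803-95417019), has one with 1 mismatch in a window of 73.0% GC. These 4 peaks were called in all 3 BCL6 lists and with PPARα in both states, beside 45.3% and 65.1% of all promoter peaks. Of the 140 promoter peaks with the element, 44.3% had fed and 50.0% fasted PPARα, so these 4 are not typical of them. At *Stat5b*, the main growth hormone-activated factor of liver (78 bp, chr11:100822540-100822756), no element was found and BCL6 was called in the fed C57BL/6 list alone, again with PPARα in both states.

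Nuclear receptor genes had 5 of 34 (14.7%), with 6 peaks that were all called in fasted livers and all with PPARα in both states, beside 51.9% and 65.1% of all promoter peaks. They were those of *Nr1i2* (PXR), *Nr5a2* (LRH-1), *Nr0b2* (SHP), *Nr1i3* (CAR) and 2 at *Pparg*, at 296 and 936 bp from its nearest annotated TSS (chr6:115421662-115421878 and chr6:115421022-115421238). The hepatocyte factor genes *Foxa2*, *Nr5a2* and *Cebpg* had peaks, 3 of 26 genes (11.5%). In insulin signaling *Akt2* (163 bp) and *Irs2* (914 bp) had peaks, 2 of 24, and neither was called in fasted livers. Mitochondrial carriers had 4 of 47 (8.51%), at *Slc25a25*, *Slc25a47*, *Slc25a10* and *Slc25a5*. The proteasome genes *Psmd3* and *Psmc6* (2 of 39, 5.13%) had the BCL6 element, BCL6 in floxed livers and no PPARα in either state. *Rpl37* and *Mrps27*, genes of ribosomal proteins, also had no PPARα, whereas *Rpl36* had it in both states. Single peaks stood at *Olfr1357* and the keratin gene *Krt4*.

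Hepatocyte marker genes had 15 peaks, 11 called in fasted livers, 12 in floxed livers, 14 with fed PPARα and 15 with fasted PPARα, beside 51.9%, 76.0%, 69.8% and 74.3% of all promoter peaks. Those nearest to the TSS were *Cp* (10 bp downstream), *Ttr* (15 bp upstream), *Alb* (19 bp, chr5:90460743-90460959), *F9* (23 bp) and *Ahsg* (91 bp). *Alb*, which encodes serum albumin, had BCL6 in fed and fasted C57BL/6 livers but not in floxed livers. The 51.9% of all promoter peaks with fasted BCL6 and the 69.8% with fed PPARα also stand beside the gene families below, with no test. Serpin genes had 11 of 63 (17.5%), with fed PPARα at 10 of 11 peaks and fasted BCL6 at 4. The 5 nearest were *Serpind1*, *Serpinc1*, *Serpina7*, *Serpina10* and *Serpina6*, of which the last pair kept BCL6 when fasted. The *Cyp2* and *Cyp3* peaks numbered 22, of which 15 were called in fasted livers and 18 had fed PPARα. *Cyp2c68*, *Cyp2d10*, *Cyp2c70*, *Cyp2j5* and *Cyp2c37* were nearest to the TSS, at 8, 68, 70, 80 and 87 bp. Conjugation enzymes had 17 peaks, 8 of them called in fasted livers and 12 with fed PPARα, and *Ugt2a3*, *Ugt2b34*, *Ugt3a1*, *Ugt2b35* and *Ugt2b36* were nearest. These families hold near-identical copies, and the authors kept only reads with a unique place, so a missing peak in them is uncertain.

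Of 684 genes, 21 had 2 promoter peaks and none had more, and at 9 of the 21 the peaks belonged to starts more than 1000 bp apart. At *Ahsg*, a fetuin gene, the peak 91 bp upstream was called in fasted livers and that at 742 bp was not, although both were in the floxed list with PPARα in both states. At *Fgb*, the fibrinogen beta chain gene, the peak at 104 bp was called in fasted and floxed livers and that at 991 bp in neither. At *Foxa2*, a liver pioneer factor gene with 2 annotated starts there, BCL6 had a CpG-poor peak called in fasted livers (chr2:148046983-148047199) and a CpG-rich one that was not (chr2:148045582-148045798). Both peaks of *Cyp3a13*, at 104 and 852 bp, were called in fasted livers. At *Fgd4* the peaks belonged to starts more than 1000 bp apart. The one at 742 bp (chr16:16600612-16600828) had a BCL6 element and no call in any other list. The one at 245 bp (chr16:16560356-16560572) had no element, floxed BCL6 and PPARα in both states. *Cyp2c39* and the lncRNA genes 1810008I18Rik and *Gm3787* also had 2, those of *Cyp2c39* at starts more than 1000 bp apart (chr19:39347084-39347300 and chr19:39510561-39510777). By count, 363 promoter peaks (53.2%) had another fed BCL6 center within 10 kb, against 48.7% of the other peaks (p = 0.0231, Fisher's exact test). This call ended with 5 kb (p = 0.124) or 50 kb (p = 0.288), and against other peaks with a TSS within 10 kb the shares were 53.2% and 54.0% (p = 0.710, Fisher's exact tests).

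All 7 lists called 28 of the promoter peaks (4.11%), and 51 (7.48%) were in no other list, against 10.4% of the other fed BCL6 peaks. Of the 28, 18 lay near the TSS, 6 had a BCL6 element and 3 a DR1. Nearest to the TSS were those of *Ddc*, *Cish*, the lncRNA gene *Gm39079*, *Bdh1*, *Lipc*, *Fabp1*, *Cyp2a22* and *Cfb*, the last a complement gene of the acute phase (105 bp, chr17:34862511-34862727). Of the 51 in no other list, 15 lay near the TSS and 17 (33.3%) had a BCL6 element.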

How the data were processed

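Chromatin from mouse liver was immunoprecipitated with antibodies against BCL6, PPARα or PPARδ and sequenced, with 3 replicates per group. The deposited lists place each peak by chromosome, start and end. Per the labels, the authors used Bowtie, HOMER and DESeq2 on mm10, and the study's methods say that only uniquely mapped reads were kept, that at most 1 read was kept per start position, and that HOMER called peaks on pooled replicates against input before DESeq2 kept those enriched across the single libraries. Replicates were separate animals. The deposited values are positions, so counts, scores and depth are unknown, and a weak peak cannot be told from an absent one. H3K27ac and knockout samples were not analysed here.

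Peak centers within 200 bp, the study's distance, counted as shared. Windows of 200 bp were read from GRCm38 of RefSeq without masking. Fisher's exact tests, two-sided, were applied to shares of peaks, and p-values were adjusted by Benjamini-Hochberg within a family (6 lists, 15 elements, 15 comparisons within promoters). No adjustment was applied to CpG class, clustering or PPARα turnover. Up to 5 genes per list were named by the smallest distance of the peak to the TSS, all of the study lipid genes, and up to 8 each of the promoters with 2 or more peaks and of the peaks in all 7 lists. Some genes that this rule selects are not reported here. Peaks just inside and outside the promoter limit were named in addition, and the *Fabp1* sequence was added after its values were seen. Alternatives changed the promoter window, the shared distance, the comparison peaks, the source list and the sequence windows. The promoter peaks, gene lists and elements were chosen with earlier results of these data known. The functions were tested on simulated data. Python 3.11.15, NumPy 2.4.6, SciPy 1.17.1, pysam 0.24.0 and Matplotlib 3.10.9 were used.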

Additional observations from a re-analysis of the deposited data

How the results depend on the processing

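No paired analysis was possible because each list pools its replicates and carries no replicate columns, and for the same reason no replicate could be left out. Values are odds ratios unless said otherwise. Of 130 alternative values of the main comparisons, 105 kept direction and call or stayed within 1.5 times the count. Of 357 for single elements and comparisons within promoters, 314 did, 13 lost a call, 9 gained one and 21 changed direction. The cause of the changes was not tested. Both totals include values that their setting could not change, so the numbers kept were partly fixed in advance. For example, limiting the other peaks left every comparison within promoters as it was, and the exact BCL6 element left the counts of the other elements unchanged.

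A window of 500 bp upstream gave 1.25 for fasted BCL6 (now past the threshold), 1.16 for fed PPARα and 0.985 for FOXA. A window of 1000 bp on either side gave 0.960 for fed PPARδ, 1.14 for clustering (no longer past the threshold), 0.861 for FOXA, 0.990 for CCAAT and 1.13 for fed PPARδ near the TSS. A shared distance of 400 bp gave 1.05 for fed PPARα. Against other peaks with a TSS within 10 kb, the ratios were 1.28 for floxed BCL6 and 1.25 for fasted PPARα (both no longer past the threshold), 0.943 for fed PPARδ and 0.967 for clustering. Clustering lost its call at 5 kb (1.13) and 50 kb (1.11). Protein-coding starts gave 0.919 for C/EBP, and masked repeats gave 0.946 for FOXA and 1.02 for TATA.

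The floxed list as source gave 0.497 for fasted BCL6, 0.677 for fed PPARα, 1.03 for fasted PPARα, 0.689 for fed PPARδ, 0.819 for fasted PPARδ, 1.90 for PPARα in fasted livers alone and 0.969 for clustering, with 11 elements past the threshold in place of 5, the BCL6 element not among them (1.17). It also gave 0.729 for FOXA, 0.791 for C/EBP, 0.903 for CCAAT and 0.851 for fasted BCL6 near the TSS. Floxed BCL6 has no value there. Windows of 50 bp left 2 elements past the threshold, without BCL6 (1.26), HNF6 (0.495) and NRF1 (5.49), and with 0.944 for STAT, 1.01 for DR1, and 0 for CRE and YY1, which no promoter peak then held.

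Chosen after seeing the data, predicted transcripts raised the promoter peaks to 1102 and gave 1.26 for fasted BCL6, 1.19 for fed and 1.31 for fasted PPARδ (all now past the threshold), 1.12 for fed PPARα, 3 elements without BCL6 (1.14) and NRF1 (3.48), 0.975 for C/EBP, 0.991 for CCAAT, 1.05 for fed PPARδ near the TSS and 0.961 for floxed BCL6 with the element. One peak per gene, also added later, gave 0.941 for FOXA and 0.980 for C/EBP.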

Other observations

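Promoters of noncoding transcripts held 72 lncRNA and 17 miRNA peaks by nearest TSS. At the lncRNA promoters BCL6 was called in fasted livers at 39 peaks (54.2%) and in floxed livers at 57 (79.2%), and PPARα in fed livers at 51 (70.8%). At the miRNA promoters fed PPARα was present at 15 of 17 peaks (88.2%, 65.7% to 96.7%), against 407 of 587 (69.3%, 65.5% to 72.9%) at protein-coding genes, and the difference was not tested. RefSeq places the start of a miRNA at its hairpin, so these positions are not those of primary transcripts.

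Promoter peaks of floxed livers had a C57BL/6 fed BCL6 center within 200 bp in 525 of 1273 cases (41.2%, 38.6% to 44.0%), and other peaks of floxed livers in 10335 of 16181 (63.9%, 63.1% to 64.6%). In the opposite direction the shares were 76.0% and 69.1%, so recurrence at promoters between the fed lists depends on which list is the starting point. The promoter share was 4.36% of fed, 5.0% of fasted and 7.29% of floxed BCL6 peaks, 8.97% and 15.2% of fed and fasted PPARα peaks, and 6.50% and 7.84% of fed and fasted PPARδ peaks.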
